A study of Rattus norvegicus with 36 samples.

Results

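Collagen genes that are expressed outside cartilage were followed in thyroid glands of rats injected with 131I. The genes were all those with a symbol of the form Col, a number, a and a number, apart from the cartilage collagens Col2a1, Col9a1, Col9a2, Col10a1 and Col11a2. On the array, 14 genes fitted this description, out of 15154 genes with a symbol, and they were measured by 18 of 30367 probes. By class they were the fibrillar genes Col1a1, Col1a2, Col3a1, Col5a1 and Col5a3, the basement membrane genes Col4a1 and Col4a4, the beaded filament gene Col6a2, the short chain gene Col8a1, the anchoring fibril gene Col7a1, the fibril associated gene Col14a1, the multiplexin gene Col18a1 and the transmembrane genes Col13a1 and Col23a1. Where a gene had more than 1 probe, the probe with the highest mean stood for it.

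All animals were adult male Sprague Dawley rats. Intravenous 131I was given at 8 activities to groups of 4 rats: 9, 88, 170 and 260 kBq on the low side, and 340, 760, 1300 and 4700 kBq on the high side. The controls were 4 mock-treated rats with 0 kBq. Thyroids were taken at 24 h, and RNA from each rat was hybridised to 1 single-colour array, giving 36 arrays. Injections were given in order of activity, with the controls last, so activity and the order of handling cannot be told apart. RNA came from all tissue in each excised sample, and the paper states that parathyroid glands may have been included. Markers of skeletal muscle, cartilage and squamous epithelium were measured in these samples too, so collagen RNA cannot be assigned to the gland alone. Fewer cells of a type and less RNA per cell cannot be told apart either.

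Collagens are triple helical proteins of the extracellular matrix. Type I and type III collagen, built from the chains of Col1a1, Col1a2 and Col3a1, form the fibrils of connective tissue and are made mainly by fibroblasts, and type V chains help to set the width of these fibrils. Type IV collagen forms the network of the basement membrane, which in the thyroid surrounds each follicle and each capillary. Radiation-induced fibrosis of normal tissue is known for deposition of fibrillar collagen, as a late effect.

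The upstream sequences of 3 members are shown first because these genes come from the sets that ran together and apart over the rats. Of the 14 genes, 10 had an upstream window in the RefSeq table (build GRCr8), and Col1a1, Col3a1, Col6a2 and Col14a1 had none there. Each line gives the 250 bases before the annotated start, 5′ to 3′ on the strand of the gene. Capitals mark matches to a motif on either strand. The motifs were the CCAAT box, the TATA box searched as TATAAA, and the GC box searched as GGGCGG. A match on the other strand appears as its reverse complement. These are Col1a2 at chr4:33518307-33518556, Col5a1 at chr3:31606630-31606879 and Col8a1 at chr11:56246532-56246781, all on the plus strand.
Col1a2: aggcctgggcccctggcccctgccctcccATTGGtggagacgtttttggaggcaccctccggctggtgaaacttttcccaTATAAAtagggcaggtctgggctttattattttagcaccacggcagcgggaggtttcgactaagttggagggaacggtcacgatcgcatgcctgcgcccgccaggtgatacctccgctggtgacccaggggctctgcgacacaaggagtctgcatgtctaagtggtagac
Col5a1: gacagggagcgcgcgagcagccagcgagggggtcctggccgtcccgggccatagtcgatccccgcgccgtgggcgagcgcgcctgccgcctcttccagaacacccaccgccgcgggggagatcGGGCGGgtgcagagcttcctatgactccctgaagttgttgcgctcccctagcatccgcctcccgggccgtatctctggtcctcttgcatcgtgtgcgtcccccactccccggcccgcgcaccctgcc
Col8a1: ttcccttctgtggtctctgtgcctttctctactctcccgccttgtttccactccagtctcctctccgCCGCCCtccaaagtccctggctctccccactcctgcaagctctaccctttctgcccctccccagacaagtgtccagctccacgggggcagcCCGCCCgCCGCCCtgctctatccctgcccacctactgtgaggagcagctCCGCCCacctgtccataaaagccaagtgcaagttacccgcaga

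The Col1a2 window held 1 CCAAT motif, starting 221 bases before the annotated start, and 1 TATAAA motif, starting 170 bases before it. The Col5a1 window held 1 GGGCGG motif, and the Col8a1 window held 4. Over the 10 collagen windows, 3 held CCAAT, 2 held TATAAA and 7 held GGGCGG. Of all 33469 windows of the same length in the table, 34.0% held CCAAT, 12.9% held TATAAA and 30.5% held GGGCGG. A match of letters is a description of the window only.

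Intensities are given on a log2 scale, as the processed signal minus the 75th percentile of the same array, so a value of 0 is the 75th percentile of its array. Values of different genes come from different probes and are not comparable in level. Of the 18 probes, 15 were well above the local background on all 36 arrays. The exceptions were the probe for Col13a1 (21 arrays) and both probes for Col23a1 (27 and 13 arrays), whose values near background are imprecise. The 75th percentile ranged from 1564 intensity units in rat 1 at 340 kBq to 4288 in rat 2 at 9 kBq. Between 62.6% (rat 1 at 1300 kBq) and 90.7% (rat 4 at 340 kBq) of the probes were well above background. Rat 1 at 340 kBq also had the most outlier spots, 1365, and no spot was saturated. The part of these arrays in the results at 340 kBq was not tested beyond leaving out each rat and weighting the arrays.

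The arrays differed strongly in the RNA level of cell type markers. Tg, the gene of thyroglobulin and the defining product of thyroid follicular cells, ranged from -4.51 to 7.48 with a median of 6.79. The mean level of 8 follicular genes was 0.02 or lower in 18 rats and 2.40 or higher in the other 18. The 18 rats with the higher level were 3 of 4 controls, 1 of 4 rats at 9 kBq, 2 of 4 at each of 88, 170, 260, 760 and 1300 kBq, 1 of 4 at 340 kBq and 3 of 4 at 4700 kBq. Genes of fast skeletal muscle had a mean level of 1.21 or higher in 35 rats and of -3.79 in rat 3 at 760 kBq. The part of these differences in the results for collagen was not tested, except where a value with the follicular level as a model term is given.

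Each activity was set against the mock-treated rats, to ask whether collagen transcripts responded to 131I within 24 h. At the limits used by the study, an adjusted p below 0.01 and a fold change of at least 1.5, limma called 0 of 18 collagen probes in each of the 8 comparisons. The share called over all 30367 probes was also 0% each time. The paper, which used Nexus Expression at these limits, reported regulated transcripts in every irradiated group, and the reason for this difference was not tested. The smallest adjusted p of a collagen probe was 0.405, for Col23a1 at 340 kBq. At an unadjusted p below 0.05, 1 collagen probe, for Col4a4, was lower at 9 kBq. At 88 kBq 2 were higher, both for the single gene Col23a1, and none passed at the other activities. In the array-wide background, the share of probes at an unadjusted p below 0.05 was 3.22% at 9 kBq, 3.36% at 88 kBq, 2.36% at 170 kBq, 1.12% at 260 kBq, 13.7% at 340 kBq, 1.64% at 760 kBq, 4.18% at 1300 kBq and 1.66% at 4700 kBq. By direction, the share was 2.77% higher and 0.454% lower at 9 kBq, 2.99% and 0.372% at 88 kBq, 2.16% and 0.201% at 170 kBq, and 0.787% and 0.336% at 260 kBq. It was 13.2% higher and 0.438% lower at 340 kBq, 1.5% and 0.148% at 760 kBq, 3.84% and 0.339% at 1300 kBq, and 1.28% and 0.372% at 4700 kBq. Over all 144 pairs of probe and comparison the collagen share was 2.08%, against 3.90% of all probes. All 8 comparisons share the same 4 controls, and all p-values measure the spread between these samples.

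An F test of any irradiated group against the controls called 0 collagen probes at an adjusted p below 0.05, with 0 at an unadjusted p below 0.05, and the smallest adjusted p was 0.989. In the background, 0.0165% of all probes were called by this F test and 2.69% had an unadjusted p below 0.05. A slope on log10 of the injected activity over the 32 irradiated rats also called 0 collagen probes, and 1 had an unadjusted p below 0.05, Col4a4. In the background, 0.0461% of all probes were called by the slope and 10.9% had an unadjusted p below 0.05.

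**Figure D1:**
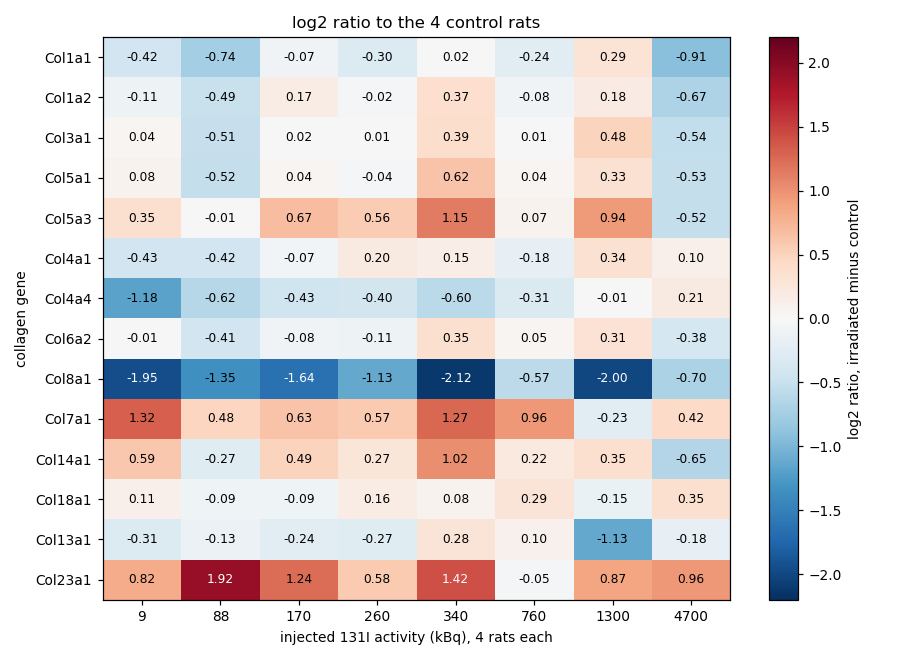
The log2 ratio to the 4 control rats is shown by colour and number for 14 collagen genes (rows) in 8 groups of 4 irradiated rats (columns, injected activity in kBq). Red stands for higher and blue for lower; the row of Col8a1 is blue throughout, from -0.57 to -2.12, and no cell passed the limits of the study.

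Col1a1 encodes the alpha 1 chain of type I collagen. In rats 1 to 4 its level was 3.42, 3.06, 4.16 and 3.04 in the controls, with a mean of 3.42 ± 0.52 (SD, n = 4). It was 4.53, 1.5, 2.69 and 3.26 at 9 kBq, 2.64, 3.49, 1.86 and 2.73 at 88 kBq, 3.44, 3.30, 3.82 and 2.83 at 170 kBq, and 2.34, 3.79, 2.65 and 3.68 at 260 kBq. It was 2.95, 4.58, 2.77 and 3.45 at 340 kBq, 3.83, 3.78, 2.94 and 2.19 at 760 kBq, 3.38, 4.20, 3.76 and 3.51 at 1300 kBq, and 2.97, 1.16, 3.58 and 2.32 at 4700 kBq. Rat 2 at 4700 kBq and rat 2 at 9 kBq had the lowest levels, and every irradiated group overlapped the controls. The log2 ratio to the controls lay between -0.91 (SE 0.54, 95% interval -2.02 to 0.19, limma adjusted p = 0.9999) at 4700 kBq and 0.29 (SE 0.54, interval -0.81 to 1.39, adjusted p = 0.866) at 1300 kBq. A 2nd probe for Col1a1 followed the first with r = 0.918 over the 36 rats, and the 2 probes had ratios of the same sign in all 8 comparisons.

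Col1a2 encodes the partner chain of type I collagen. Its level was 5.23, 5.06, 5.83 and 4.46 in control rats 1 to 4, with a mean of 5.14 ± 0.56 (SD, n = 4). It was 5.98, 3.78, 5.30 and 5.10 at 9 kBq, 4.49, 5.34, 4.19 and 4.61 at 88 kBq, 5.52, 5.0, 5.66 and 5.07 at 170 kBq, and 4.50, 5.60, 4.84 and 5.54 at 260 kBq. It was 5.79, 6.28, 4.81 and 5.17 at 340 kBq, 5.55, 5.48, 5.05 and 4.17 at 760 kBq, 5.06, 5.61, 5.54 and 5.10 at 1300 kBq, and 4.57, 3.24, 5.52 and 4.56 at 4700 kBq. The lowest rats at 9 and at 4700 kBq were the same as for Col1a1, and no group stood outside the controls. The log2 ratio ran from -0.67 (SE 0.44, interval -1.57 to 0.23) at 4700 kBq to 0.37 (SE 0.44, interval -0.53 to 1.27) at 340 kBq.

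Col3a1 encodes the chain of type III collagen, which lies beside type I in the fibrils of soft tissue. Its level was 4.55, 3.98, 5.23 and 3.68 in control rats 1 to 4, with a mean of 4.36 ± 0.68 (SD, n = 4). It was 5.21, 2.88, 4.67 and 4.84 at 9 kBq, 3.31, 4.76, 3.14 and 4.18 at 88 kBq, 4.26, 4.21, 4.45 and 4.58 at 170 kBq, and 3.69, 4.63, 4.19 and 4.97 at 260 kBq. It was 4.94, 5.16, 4.27 and 4.61 at 340 kBq, 5.08, 5.06, 4.02 and 3.31 at 760 kBq, 4.66, 4.87, 5.12 and 4.72 at 1300 kBq, and 4.12, 2.57, 4.82 and 3.78 at 4700 kBq. Rat 2 at 4700 kBq and rat 2 at 9 kBq were again the lowest, and every group overlapped the controls. The log2 ratio was between -0.54 (SE 0.48, interval -1.52 to 0.44) at 4700 kBq and 0.48 (SE 0.48, interval -0.50 to 1.46) at 1300 kBq.

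**Figure D2:**
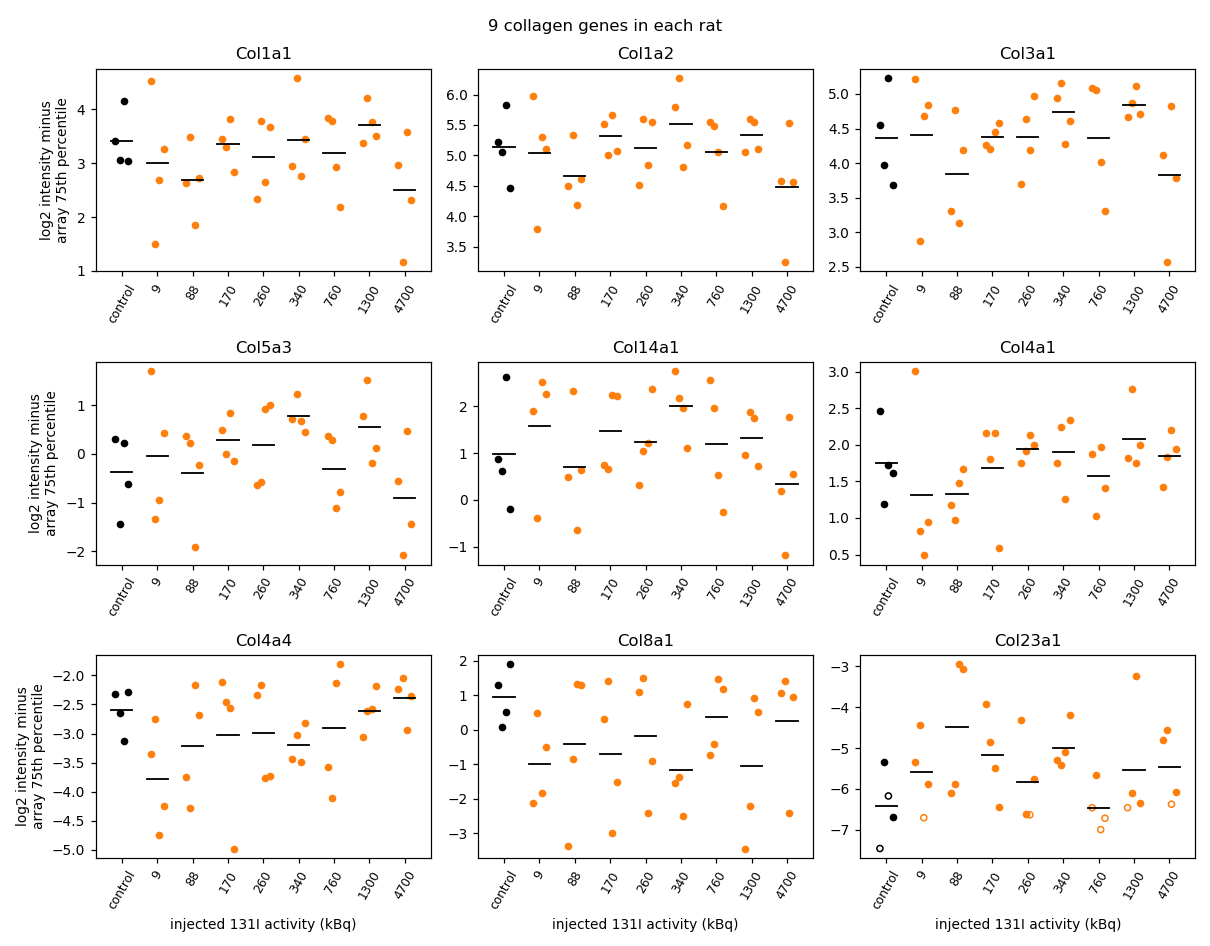
The log2 level of 9 collagen genes is shown in each rat (points), in the control group (black) and at 8 injected activities of 131I in kBq (orange); horizontal bars are group means and open points are arrays on which the probe was not well above background. The 4 controls overlap nearly every group, and Col5a3 at 340 kBq is the exception among the panels.

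Col5a3 encodes a minor chain of type V collagen. Its level was 0.31, -1.45, 0.23 and -0.61 in control rats 1 to 4 and 0.72, 1.23, 0.68 and 0.45 at 340 kBq. All 4 rats at 340 kBq lay above all 4 controls, and this was the only 1 of 112 pairs of gene and comparison in which the groups did not overlap. Over the whole array, 4.34% of the probes did not overlap in that comparison. In the comparisons with 0 such collagen genes, the share was 1.73% at 9 kBq, 1.86% at 88 kBq, 1.25% at 170 kBq, 1.07% at 260 kBq, 1.63% at 760 kBq, 1.26% at 1300 kBq and 1.27% at 4700 kBq. The log2 ratio was 1.15 (SE 0.62, interval -0.11 to 2.41, limma adjusted p = 0.424), and the two-sided exact permutation test gave p = 0.0286, the smallest that 4 rats against 4 can give. The median log2 ratio of all probes at 340 kBq was 0.31, and relative to it Col5a3 was 0.84 higher. On the slide that held 1 rat of either group the difference was 2.67, and on the slide with 2 rats at 340 kBq and 1 control it was 0.27. In the other groups the level of Col5a3 in rats 1 to 4 was 1.70, -1.33, -0.95 and 0.44 at 9 kBq, 0.37, 0.22, -1.91 and -0.23 at 88 kBq, 0.49, -0.0044, 0.83 and -0.15 at 170 kBq, and -0.64, -0.57, 0.93 and 1.01 at 260 kBq. It was 0.37, 0.29, -1.11 and -0.78 at 760 kBq, 0.79, 1.52, -0.18 and 0.12 at 1300 kBq, and -0.56, -2.08, 0.46 and -1.43 at 4700 kBq. Each of these groups overlapped the controls. Col5a1, the main type V chain, had log2 ratios between -0.53 at 4700 kBq and 0.62 at 340 kBq.

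As a class, the 5 fibrillar genes were highest in mean at 340 kBq, 0.51 above their mean over the 36 rats, and lowest at 4700 kBq, at -0.64. The SD between the 4 rats of a group ranged from 0.24 to 1.13 for this class level, so the groups differed by amounts of the same order as rats of 1 group. Single rats reached from -1.89 (rat 2 at 4700 kBq) to 1.15 (rat 1 at 9 kBq). Col6a2, the chain of the beaded filaments of type VI collagen that lie between cells and fibrils, had group means between -0.38 at 88 kBq and 0.38 at 340 kBq around its own mean.

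Col14a1 encodes a collagen that attaches to the surface of type I fibrils. In rats 1 to 4 its level was 0.87, 0.61, 2.64 and -0.20 in the controls, 1.90, -0.39, 2.52 and 2.26 at 9 kBq, and 0.48, 2.34, -0.64 and 0.64 at 88 kBq. It was 0.74, 0.66, 2.25 and 2.22 at 170 kBq, 0.33, 1.06, 1.22 and 2.38 at 260 kBq, and 2.76, 2.18, 1.97 and 1.10 at 340 kBq. It was 2.57, 1.96, 0.54 and -0.27 at 760 kBq, 0.96, 1.87, 1.76 and 0.73 at 1300 kBq, and 0.19, -1.19, 1.77 and 0.56 at 4700 kBq. Control rat 3 was near the highest and control rat 4 near the lowest of all rats, and no group stood outside the controls. The slope on log10 activity was -0.27 (SE 0.23, limma adjusted p = 0.688), and it was 0.014 with the follicular level as a term. It was -0.47 without rat 2 at 9 kBq and -0.12 without rat 2 at 4700 kBq.

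Col4a1 and Col4a4 encode chains of type IV collagen: Col4a1 belongs to the network of nearly all basement membranes, and Col4a4 to a network of a few tissues such as the kidney glomerulus. Col4a4 was at -2.33, -2.65, -3.12 and -2.28 in control rats 1 to 4 and at -3.36, -2.75, -4.74 and -4.25 at 9 kBq. In this comparison 3 of the 4 irradiated rats lay below all controls. The log2 ratio was -1.18 (SE 0.56, interval -2.33 to -0.03) with an unadjusted p of 0.0450 and a limma adjusted p of 0.999. The unadjusted p no longer passed 0.05 without rat 3 or rat 4 at 9 kBq, or without control rat 1, 2 or 4, where the log2 ratio lay between -0.86 and -1.20. Without rat 2 at 9 kBq it was -1.52. With array weights the log2 ratio was -1.78 (limma adjusted p = 0.0117). In that fit rats 3 and 4 at 9 kBq, the lowest of the group, had weights of 1.71 and 3.87. Rats 1 and 2 had weights of 0.54 and 0.30, so the weighted ratio rested mostly on rats 3 and 4. With the follicular level as a term the log2 ratio was -0.40. Within slides the difference was -0.05, -2.09 and -1.92 on the 3 slides that held both groups.

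At the other activities Col4a4 was at -3.75, -4.28, -2.16 and -2.68 (88 kBq), -2.12, -2.46, -2.56 and -4.98 (170 kBq), -2.33, -2.17, -3.76 and -3.73 (260 kBq) and -3.44, -3.03, -3.48 and -2.82 (340 kBq) in rats 1 to 4. It was at -3.58, -4.11, -2.13 and -1.80 (760 kBq), -3.06, -2.62, -2.57 and -2.19 (1300 kBq) and -2.23, -2.05, -2.93 and -2.35 (4700 kBq). The SD between rats was 0.32 at 340 kBq, 0.36 at 1300 kBq, 0.38 at 4700 kBq and 0.39 in the controls. The rats at 88, 170 and 760 kBq were spread over more than 2 log2 units. The slope on log10 activity was 0.49 log2 units per 10-fold activity (SE 0.17), with an unadjusted p of 0.00795 and a limma adjusted p of 0.287. It ranged from 0.40 to 0.59 when each rat was left out in turn, and was 0.28 (adjusted p = 0.179) with the follicular level as a term.

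Col4a1 was at 2.46, 1.19, 1.73 and 1.61 in control rats 1 to 4, 3.01, 0.83, 0.49 and 0.95 at 9 kBq, and 1.18, 0.97, 1.48 and 1.66 at 88 kBq. It was at 2.17, 1.80, 2.16 and 0.59 at 170 kBq, 1.75, 1.91, 2.14 and 2.0 at 260 kBq, and 1.76, 2.25, 1.25 and 2.34 at 340 kBq. It was at 1.88, 1.02, 1.97 and 1.41 at 760 kBq, 1.82, 2.77, 1.76 and 1.99 at 1300 kBq, and 1.43, 1.83, 2.21 and 1.94 at 4700 kBq. All groups overlapped the controls, and the widest was 9 kBq, with both the highest and the lowest rat. Its slope was 0.25 (SE 0.13, limma adjusted p = 0.486). It was 0.41 (adjusted p = 0.0676) without rat 1 and 0.17 without rat 3 at 9 kBq, and the 2nd Col4a1 probe gave 0.08 (SE 0.09).

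Col23a1 and Col13a1 encode collagens that stay anchored in the cell membrane. Col23a1 was at -7.46, -5.33, -6.17 and -6.68 in control rats 1 to 4, 2 of them well above background, and at -6.09, -5.87, -2.94 and -3.05 at 88 kBq. Rats 3 and 4 at 88 kBq were far above the controls, and rats 1 and 2 lay among them. The log2 ratio was 1.92 (SE 0.75, interval 0.39 to 3.46) with an unadjusted p of 0.0160 and a limma adjusted p of 0.9999. Without rat 3 or rat 4 at 88 kBq, or without control rat 1, the ratio was 1.41, 1.44 and 1.57 and the unadjusted p was above 0.05. It was also above 0.05, at 0.0528, with only the 2 groups in the limma fit. The ratio was 0.89 with normexp background correction and 3.05 (limma adjusted p = 0.0764) with array weights, so its size depended on both. No slide held rats of both groups. The 2nd probe for Col23a1 gave 2.29 (SE 0.97, limma unadjusted p = 0.0253).

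At 9 kBq Col23a1 was at -5.33, -4.45, -6.71 and -5.87, at 170 kBq at -3.92, -4.85, -5.49 and -6.45, and at 260 kBq at -4.32, -6.62, -6.64 and -5.75 in rats 1 to 4. It was at -5.28, -5.41, -5.09 and -4.20 at 340 kBq, -6.46, -5.65, -7.00 and -6.72 at 760 kBq, -6.46, -6.10, -3.25 and -6.34 at 1300 kBq, and -4.82, -4.55, -6.38 and -6.08 at 4700 kBq. The means of 7 groups were above the control mean and that of 760 kBq, where 1 of 4 arrays was well above background, was below it. Col13a1 ranged from -8.31 to -3.29 over the 36 rats, with log2 ratios between -1.13 at 1300 kBq and 0.28 at 340 kBq.

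Col8a1 encodes a short chain collagen best known from the endothelial basement membrane of the cornea and from blood vessel walls. It was at 1.28, 0.08, 0.51 and 1.90 in control rats 1 to 4, with a mean of 0.94 ± 0.81 (SD, n = 4). In rats 1 to 4 it was at -2.14, 0.48, -1.84 and -0.51 (9 kBq), -3.39, -0.86, 1.34 and 1.30 (88 kBq), 0.29, 1.42, -2.99 and -1.52 (170 kBq) and 1.08, 1.49, -2.41 and -0.92 (260 kBq). It was at -1.54, -1.39, -2.51 and 0.73 (340 kBq), -0.73, -0.43, 1.48 and 1.17 (760 kBq), -3.45, -2.23, 0.91 and 0.52 (1300 kBq) and 1.05, 1.4, -2.43 and 0.94 (4700 kBq). Every irradiated group held rats within the control range and rats below it. The group mean was below the control mean in all 8 comparisons, which share the controls, but none had an unadjusted p below 0.05. The largest difference was -2.12 (SE 1.14, interval -4.44 to 0.21, limma adjusted p = 0.424) at 340 kBq, and the smallest was -0.57 (SE 1.14, interval -2.89 to 1.76) at 760 kBq. With array weights the ratio was -2.81 at 340 kBq and -2.08 at 9 kBq, both at an unadjusted p below 0.05. With the follicular level as a term the 8 ratios were between -0.23 and -1.22. Col8a1 was taken up here after its values had been seen.

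Col7a1 encodes the collagen of anchoring fibrils, which tie squamous epithelium to the tissue under it. Its level was far apart between rats of several groups, such as -0.04, 0.12, -3.72 and -3.98 in rats 1 to 4 at 760 kBq and -3.07, -3.39, -3.05 and 0.57 at 170 kBq. Col7a1 was taken up after its values had been seen. In the controls it was -3.65, -2.32, -1.71 and -3.76. The log2 ratio lay between -0.23 (SE 1.08) at 1300 kBq and 1.32 (SE 1.08, interval -0.89 to 3.52) at 9 kBq. Col18a1, a basement membrane collagen whose end fragment is endostatin, varied the least, with log2 ratios from -0.15 to 0.35.

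In direction, 12 of the 14 genes were lower in mean than the controls at 88 kBq and 12 were higher at 340 kBq, with medians of -0.42 and 0.36. The median log2 ratio of all probes was 0.09 and 0.31, and 8 of the 14 genes were above it at 340 kBq. With quantile normalization 12 were lower at 88 kBq, with a median of -0.47, and 11 were higher at 340 kBq, with a median of 0.057 against -0.017 for all probes. With the slide as a block 10 were lower at 88 kBq and 10 were higher at 340 kBq. No slide held both rats at 88 kBq and controls. With the follicular level as a term 8 were higher and 6 lower at 340 kBq, the median was 0.052 against 0.16 for all probes, and 4 genes were above that. At the highest activity, 4700 kBq, 9 genes were lower and 5 higher, with a median of -0.45 against 0.09 for all probes. At 9, 170 and 260 kBq 7 were higher and 7 lower. With the slide as a block these splits were 5 higher and 9 lower, 10 and 4, and 4 and 10, and with array weights they were 9 and 5, 9 and 5, and 10 and 4. The 14 genes together kept no direction from low to high activity. Many of them ran together over the rats, so these are not counts of independent genes.

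Rats of the same group differed widely. The pooled SD between rats of a group was 0.44 for Col18a1, 0.57 for Col6a2, 0.58 for Col4a1, 0.63 for Col1a2, 0.69 for Col3a1 and 0.78 for Col1a1. It was 1.06 for Col14a1, 1.10 for Col23a1, 1.34 for Col13a1, 1.58 for Col7a1 and 1.67 for Col8a1. The median over the 14 genes was 0.83, against 0.67 for all probes, and 10 of the 14 were above that median of all probes. For probes well above background on all arrays the median was lower, at 0.50. Col8a1 and Col7a1 stood at the 93.7th and 92.8th percentile of all probes by this SD. The 4 measured cartilage collagens had SDs from 0.82 for Col9a1 to 2.45 for Col2a1.

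**Figure D3:**
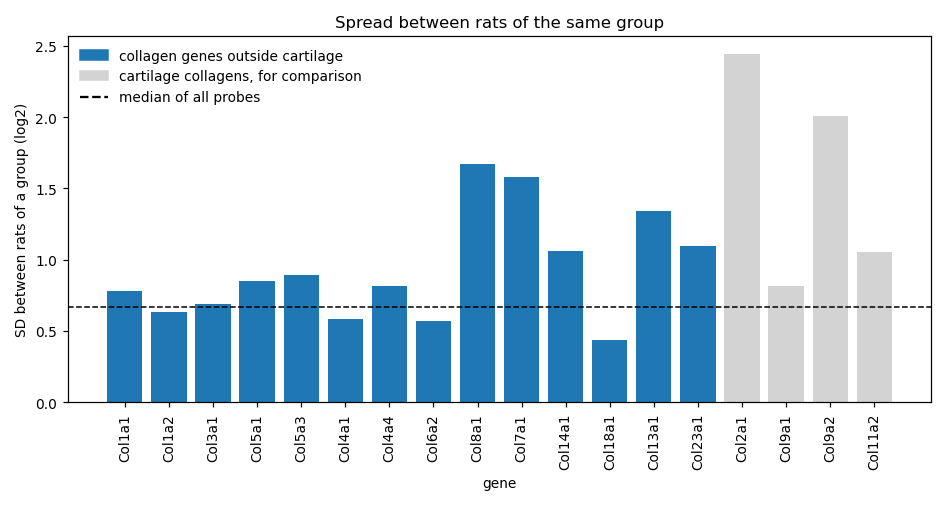
The SD between rats of the same group, pooled over 9 groups of 4 rats, is shown on the log2 scale for 14 collagen genes outside cartilage (blue bars) and 4 cartilage collagens (grey bars). The dashed line is the median of all probes, 0.67; Col8a1 and Col7a1 are the tallest blue bars, at 1.67 and 1.58.

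The variation between rats was shared among the genes of fibrillar collagen. Of 8 pairs of partner chains considered, both genes were measured for 2 pairs. Col1a1 and Col1a2, the 2 chains of type I collagen, had r = 0.921 and rho = 0.883 over 36 rats. Col3a1 and Col1a1 had r = 0.887 and rho = 0.836. For all of these values the permutation p was 1e-05, the smallest that 100000 permutations can give, also after Benjamini-Hochberg adjustment over the 2 pairs. As deviations from the group means, r was 0.922 and 0.877, and without the 2 rats farthest from the median it was 0.88 and 0.83. Within the 5 slides r lay between 0.351 and 0.982 for the first pair and between 0.545 and 0.964 for the second. The lowest value of each came from the same slide of 7 rats. All values of 1 rat share the scaling of its array.

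Among all 91 pairs of the 14 genes, the highest correlation was that of Col5a1 and Col6a2, with r = 0.969 and rho = 0.946 (permutation p adjusted over the 91 pairs 3.79e-05 for r and 4.14e-05 for rho, r = 0.956 without the 2 farthest rats, 0.911 to 0.990 within slides). Col1a1, Col1a2, Col3a1, Col5a1, Col5a3, Col6a2 and Col14a1, a set put together after the values were seen, had r between 0.681 and 0.969 in its 21 pairs. As deviations from the group means the lowest r was 0.621, and within slides it was 0.111, for Col1a1 with Col6a2. Col8a1, Col13a1 and Col4a4, also put together after the values were seen, had r between 0.528 and 0.770. Between these 3 genes and the 7 matrix genes r was below 0 in all 21 pairs, from -0.692 to -0.184. Of these pairs, 14 had an adjusted permutation p for r below 0.05, and the highest of the 21 was 0.325. Because both sets were picked from the same 91 pairs, the shared sign and this count describe the choice and test nothing. The probe for Col13a1 was well above background on only 21 arrays. Within slides some of these pairs turned positive, up to r = 0.498 for Col1a1 with Col13a1. The lowest correlation of all was that of Col4a4 and Col7a1, with r = -0.875 and rho = -0.825 (adjusted permutation p 3.79e-05 for r and 4.14e-05 for rho, r = -0.843 without the 2 farthest rats, -0.960 to -0.824 within slides).

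**Figure D4:**
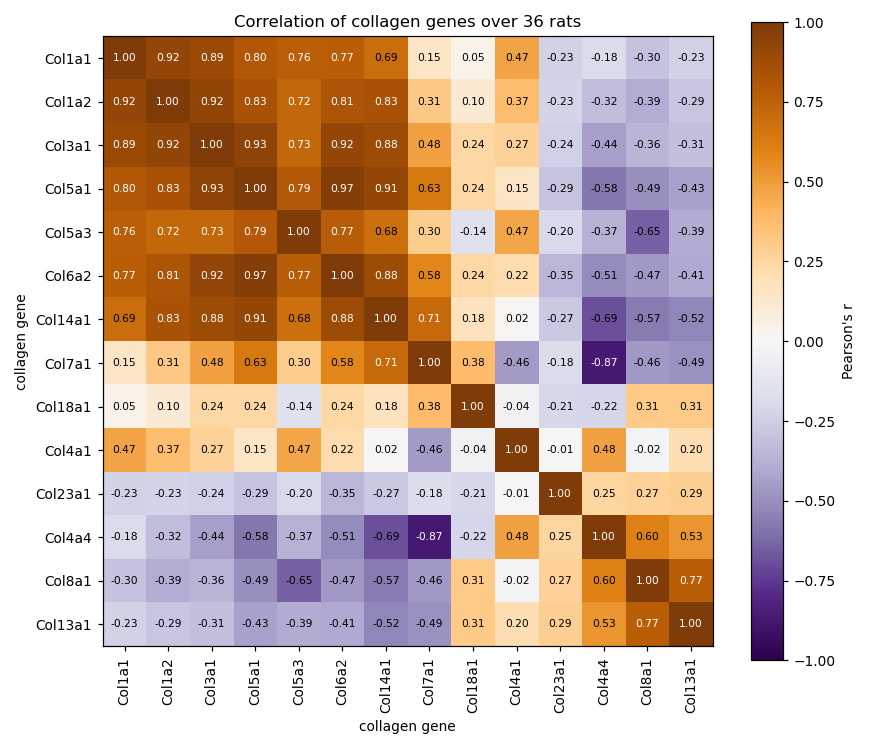
Pearson's r over 36 rats is shown by colour and number for each pair of the 14 collagen genes (rows and columns). The 7 genes from Col1a1 to Col14a1 form a brown square with r from 0.68 to 0.97, and Col4a4, Col8a1 and Col13a1 form a smaller one at the lower right.

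Some collagen genes also ran with the marker genes of the cell types in the sample, over 364 relations of 14 genes with 21 lists. The relations named here and below were picked after the values were seen, and they do not stand for the rest. Where a list divided the rats into separate clusters, r was taken within each cluster. Col14a1 had r = 0.863 and rho = 0.845 with 6 fibroblast genes, such as Dcn and Lum, over 36 rats (permutation p adjusted over the 364 relations 0.000104 and 9.84e-05), with r = 0.825 without the 2 farthest rats and 0.669 to 0.974 within slides. Col4a1 had r = 0.759 and rho = 0.717 with 6 endothelial genes, such as Pecam1 and Cdh5 (adjusted permutation p 0.000104 and 9.84e-05), with r = 0.722 without the 2 farthest rats and 0.710 to 0.828 within slides. Col4a1 also had r = 0.844 and rho = 0.772 with 4 adipose genes (adjusted permutation p 0.000104 and 9.84e-05), with r = 0.790 without the 2 farthest rats and 0.807 to 0.903 within slides.

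For squamous markers the rats lay in a cluster of 23 and a cluster of 13, and within the 13 rats with the higher level Col7a1 had r = 0.967 and rho = 0.918 (adjusted permutation p 0.000104 and 0.000472), with r = 0.874 without the 2 farthest rats. In the other 23 rats r was -0.469 and rho was -0.486 (adjusted permutation p 0.0654 and 0.0566). For follicular markers, Col8a1 had r = 0.933 and rho = 0.936 within the 18 rats with the higher level (adjusted permutation p 0.000104 and 9.84e-05), with r = 0.880 without the 2 farthest rats. In the 18 rats with the lower level r was -0.0873 and rho was -0.0320 (adjusted permutation p 0.813 and 0.965). For 3 of these 4 clusters no slide held 6 rats, and for the 23 rats with lower squamous markers 1 slide did, where Col7a1 had r = 0.207.

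**Figure D5:**
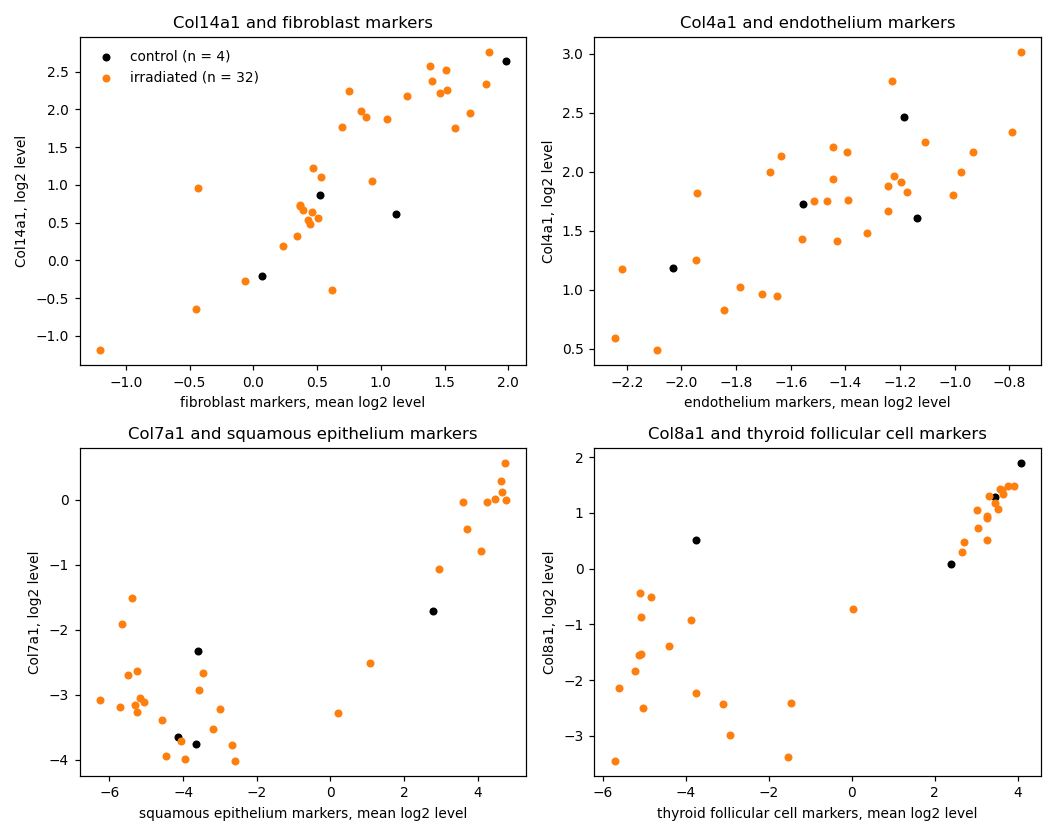
Each point is 1 of 36 rats, with the mean log2 level of a marker list on the horizontal axis and the log2 level of a collagen gene on the vertical axis, for control rats (black, n = 4) and irradiated rats (orange, n = 32). Col14a1 and Col4a1 rise along their lists in 1 cloud, while the lists for Col7a1 and Col8a1 part the rats into clusters with a relation in the upper one.

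The other genes of collagen metabolism were taken from 6 lists with 56 measured genes. None was called by limma in any comparison at the limits of the study, and the genes named here were chosen after their values were seen. At an unadjusted p below 0.05, 2 were higher and 2 lower at 9 kBq, 3 higher and 2 lower at 88 kBq, 1 higher at 170 kBq, 1 lower at 260 kBq, 3 higher and 1 lower at 340 kBq, 2 higher and 1 lower at 1300 kBq, and none at 760 or 4700 kBq. These counts stand beside 3.22%, 3.36%, 2.36%, 1.12%, 13.7%, 1.64%, 4.18% and 1.66% of all probes from 9 to 4700 kBq. Of 8 genes of processing and cross-linking, Tll2, a protease of the family that removes procollagen ends, had log2 ratios of 1.35 (SE 0.36, limma adjusted p = 0.174) at 340 kBq and between 0.77 and 0.90 at 9, 88, 170 and 1300 kBq with an unadjusted p below 0.05. Of 8 fibrogenic signals, Ccn2, a matricellular protein gene, had log2 ratios of -1.70 (SE 0.79) at 9 kBq and -1.61 (SE 0.79) at 88 kBq, with a limma adjusted p of 0.999 and 0.9999.

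Of 10 genes of collagen degradation, the collagenase Mmp13 had log2 ratios of 2.77 (SE 0.93) at 9 kBq and 2.02 (SE 0.93) at 88 kBq, with an adjusted p of 0.999 and 0.9999. Of 15 genes of chain synthesis and folding, P4ha3, a prolyl hydroxylase subunit, had a log2 ratio of 1.60 (SE 0.72) at 88 kBq and Plod2, a lysyl hydroxylase, had -0.82 and -0.85 at 340 and 1300 kBq. Of the 9 proteoglycans and fibril partners and of the 6 collagen receptors, none reached an unadjusted p below 0.05. The median ratio of the proteoglycan list ran from -0.57 at 88 kBq to 0.42 at 340 kBq. Over the rats, several collagens ran with these lists, and Col3a1 had r = 0.898 and rho = 0.910 with processing and cross-linking over 36 rats (permutation p adjusted over the 364 relations 0.000104 and 9.84e-05, r = 0.883 without the 2 farthest rats, 0.799 to 0.971 within slides). Col8a1 had r = 0.836 and rho = 0.846 with synthesis and folding (adjusted permutation p 0.000104 and 9.84e-05, r = 0.809 without the 2 farthest rats, 0.736 to 0.961 within slides).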

How the data were processed

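Total RNA of each thyroid was hybridised to Agilent rat arrays by the authors, and the intensity per spot was deposited as scanner output of 1 array per rat. Each deposited processed intensity had its background subtracted by the scanner software. The deposited value table holds linear intensity values that the authors had quantile normalized, as judged from its sorted columns, which matched to a relative difference of at most 0.00156, and served as an alternative after log2. The submitters' processing notes name Partek. The genome build given with the arrays was not used for coordinates.

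Outlier spots were dropped, log2 values were taken minus the 75th percentile of the array, and spots of a probe were averaged. Probes were named through their RefSeq accessions, for 17998 of 30367 probes. All 9 groups were fitted in 1 model with limma 3.58.1 in R 4.3.3, with Benjamini-Hochberg adjustment over all probes, and correlations used Python 3.11.15 and scipy 1.17.1. On simulated data for 4700 kBq with 30268 probes, 95.0% of changes of 5 SD and 6.00% of changes of 2 SD were called. Genes with values in every rat were Col1a1, Col3a1, up to 2 genes in each direction with an unadjusted p below 0.05 per comparison, and the 3 genes with the smallest p in the slope and in the F test. Members, lists and rules were chosen with earlier results of these data known. Precision is limited by the number of arrays, 4 per group. The arrays came from 5 slides scanned on 2 days, and alternatives included the slide as a block, quantile normalization, normexp correction, a filter on dim probes, array weights and leaving out each rat. The values of 1 gene of the lists are not reported here.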

Additional observations from a re-analysis of the deposited data

Results flagged for a closer look

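Over the 126 combinations of 14 genes and 9 groups of 4 rats, 4 values lay far from the other 3 rats of their group by Dixon's ratio. Chance flags about 1 in 20 groups. Rat 4 at 170 kBq had Col4a4 at -4.98, against -2.56 to -2.12 in the other 3 rats, and Col7a1 at 0.57, against -3.39 to -3.05. The same rat had squamous markers at 4.74 and follicular markers at -5.08, and their part was not tested. Rat 3 at 4700 kBq had Col8a1 at -2.43, against 0.94 to 1.4. It was the only rat of that group with follicular markers below 0, at -3.11, and their part was not tested. Rat 3 at 1300 kBq had Col23a1 at -3.25, against -6.46 to -6.10.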

How the results depend on the processing

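At the limits of the study the count of collagen probes called was 0 in every comparison under each alternative run, leaving out each rat included. The same held for the F test and the slope, except with array weights, where 2 probes were called by the F test and 1, Col4a4, by the slope (0.67, adjusted p = 0.0122). The shares of all probes called by the F test and the slope are given above for the fit without weights only. Whether weighting raised the calls over the whole array is therefore not shown by them. Counts at an unadjusted p below 0.05 moved more. The shares of all probes given above come from the main fit, so the counts under these alternatives cannot be read against them. With array weights they were 7 at 9 kBq, 2 at 170 kBq, 6 at 340 kBq, 3 at 760 kBq, 2 at 1300 kBq and 2 at 4700 kBq. With only the 2 groups compared in the fit they were 2 at 9 kBq, 1 at 88 kBq, 3 at 340 kBq and 1 at 4700 kBq. At 9 kBq the slide as a block and the replicate block both gave 0. At 88 kBq the filter on dim probes gave 1. At 4700 kBq quantile normalization, normexp correction and the authors' matrix each gave 2. The follicular level as a covariate, an alternative chosen after seeing the data, gave 2 at 170 kBq, 3 at 340 kBq and 1 at 1300 kBq, and turned the slope of Col14a1 from -0.27 to 0.014. Leaving out 1 rat at a time gave 0 to 3 probes at 9 kBq, 0 to 2 at 88, 340 and 4700 kBq, 0 to 1 at 170 and 1300 kBq and 0 at 260 and 760 kBq. The cause of these changes was not tested. Replicate numbers only name the rats: rats of different groups with the same number had correlations of their deviations from -0.709 to 0.758 with a median of -0.027, and the replicate block changed no other count. Limits are the 4 rats per group, the signal near background of Col13a1 and Col23a1, and the marker levels that varied between rats.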
